A study of Mus musculus with 8 samples.

Results

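The Zfp-named zinc-finger genes are the mouse genes whose symbol in the mm9 annotation is Zfp followed by digits alone. They were selected on their expression in Hepa 1-6 cells, a mouse hepatoma line, as those with at least 200 raw counts averaged over 4 mRNA sequencing samples, leaving out Zfp36 and Zfp57. Of 21915 genes in the count table, 319 bear such a symbol, and 179 became members, while 138 others lay under 200 mean counts. All 179 passed the filter on low counts, which kept 14142 genes for testing. The selecting values are the counts in all 4 samples, both groups together.

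Zinc fingers of the C2H2 type are short folds held by a zinc ion, and arrays of them read DNA sequence. Many mouse Zfp genes also encode a Krüppel-associated box (KRAB), the stretch through which these proteins recruit KAP1, the product of Trim28, which in turn brings in SETDB1, HP1 proteins and the nucleosome remodelling and deacetylase complex to silence chromatin, mostly at transposable elements. KRAB zinc-finger genes have multiplied in clusters by local duplication and lie within chromatin that KAP1 itself binds in several cell types.

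The study sequenced polyadenylated RNA from Hepa 1-6 cells of 2 groups, each with 2 samples. Kap1 knock-down (KD) cells carried a pLKO lentiviral vector with an shRNA against Kap1, and controls, per the study's methods, the empty vector, which the sample labels call a control shRNA. Both groups were selected with puromycin and, per the labels, collected 5 days after transduction. Total counts were 53605115 and 49915004 in control replicates 1 and 2 and 41566888 and 49578846 in Kap1 KD replicates 1 and 2. Nothing in the labels says whether the replicates were separate transductions, so the p-values rest at most on the spread between these samples, which may be technical. In each group 1 title ends in 2, and the sample whose title does not is called replicate 1 here, so a pairing by number is partly inferred.

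Trim28, the target of the shRNA, had 456 and 575 CPM (counts scaled to library size by TMM) in control replicates 1 and 2 and 106 and 78.9 in Kap1 KD replicates 1 and 2. Both Kap1 KD samples lay far below both controls. The log2 fold change was -2.48 (SE 0.25). The quasi-likelihood test of edgeR gave an unadjusted p of 2.1e-04 and, after Benjamini-Hochberg adjustment, an adjusted p of 0.9999. The log2 difference was -2.11 between the samples numbered 1 and -2.86 between those numbered 2. By exact permutation, 2 samples against 2 reach no lower p than 0.333. With the replicate number as a block in the same test, Trim28 passed the thresholds used for calls, a 1.5-fold change and an adjusted p under 0.05. A fit of 4 samples with this block leaves little from which to gauge the spread of a single gene. Here and below, SE and p with the block rest mostly on a spread shared across genes. A small p with the block therefore does not show that the replicates of that gene were close.

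Markers of the cell type were read before the members. Alb, which encodes albumin, had 1580 and 1037 CPM in the controls against 975 and 441 after knock-down, and Afp, the fetal counterpart, had 697 and 750.4 CPM in the controls against 604 and 445 after knock-down. Both groups expressed the pair at high level, with every Kap1 KD sample below every control. Over the 8 hepatocyte or hepatoma markers the summed level was 2454 and 2075 CPM in the controls against 1710 and 1096 after knock-down. With the replicate block 3 of the 7 tested (Alb, Apob and Apoa1) were called lower. Apoa1 had at most 0.423 CPM in any sample, and Ttr was almost absent. The leukocyte list summed to at most 8.32 CPM in any sample, led by Cd68, the endothelial list to at most 0.282 and the fibroblast or stellate list to at most 2.39, where of the 2 genes tested Col1a1 was called higher with the block at 0.72 and Des, at -0.53, was not called. The cholangiocyte list, led by Krt7, summed to 102 and 49.1 CPM in the controls against 80.7 and 33.9 after knock-down, with Epcam called lower. Less RNA of a gene per cell and fewer cells expressing it cannot be told apart in such bulk samples, and the part of the lower hepatocyte markers in the members' values was not tested.

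A KRAB box was looked for in each member by translating its annotated transcripts and scoring 13 conserved positions of the KRAB A box, of which at least 10 had to match. By this measure 67 members have a KRAB box and 112 do not. A score under 10 does not show that a gene has no box, since an incomplete transcript would hide it. Zfp180 scored 6, although the paper illustrates KRAB zinc-finger genes with a locus it names Kzfp180. Throughout, members without a KRAB box are those in which none was found in this way. Of the 67, 66 scored 11 or more, and 6 of the members not counted as KRAB scored between 7 and 9. The coding stretches of 6 members are shown because the split between KRAB and other members rests on them: the 4 KRAB members whose groups did not overlap (Zfp568, Zfp954, Zfp334 and Zfp202), then Zfp101, the member with the widest gap between the control replicates, and Zfp597, which fell 1 position short of a KRAB call and was chosen after its values were seen. Each is 90 bases of coding exon in mm9, 5′ to 3′, with the codons that matched in capitals.
Zfp568: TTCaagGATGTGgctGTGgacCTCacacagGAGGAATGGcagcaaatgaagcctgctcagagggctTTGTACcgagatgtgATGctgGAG
Zfp954: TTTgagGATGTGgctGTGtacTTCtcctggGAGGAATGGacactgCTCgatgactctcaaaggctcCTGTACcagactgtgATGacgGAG
Zfp334: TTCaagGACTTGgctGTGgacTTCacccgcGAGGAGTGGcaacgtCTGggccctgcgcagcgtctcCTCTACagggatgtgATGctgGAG
Zfp202: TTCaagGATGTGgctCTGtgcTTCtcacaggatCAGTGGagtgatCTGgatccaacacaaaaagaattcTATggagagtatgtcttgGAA
Zfp101: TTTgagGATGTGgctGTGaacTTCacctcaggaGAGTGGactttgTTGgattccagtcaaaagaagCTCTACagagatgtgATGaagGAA
Zfp597: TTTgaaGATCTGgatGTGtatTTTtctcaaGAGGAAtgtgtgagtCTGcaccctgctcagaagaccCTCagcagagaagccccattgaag

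The positions are Zfp568 on the plus strand at chr7:30782781-30782870, Zfp954 on the minus strand at chr7:7070522-7070611, Zfp334 on the minus strand at chr2:165208764-165208853, Zfp202 on the plus strand at chr9:40017364-40017453, Zfp101 on the minus strand at chr17:33523655-33523744 and Zfp597 on the minus strand at chr16:3871175-3871264, each within a single exon. Zfp954 and Zfp334 matched at all 13 positions, Zfp568 and Zfp101 at 12, Zfp202 at 10 and Zfp597 at 9. The stretch of Zfp334 was identical to that of Zfp568 at 73.3% of bases and that of Zfp597 at 58.9%.

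KRAB members carried a median of 12 C2H2 fingers in 615 residues, against 6 in 576 for the others, and the conserved linker between fingers occurred a median of 7 times against 1. In 10 members, among them Zfp330 and Zfp414, the finger pattern searched for had no match, which does not show that the protein has no finger. The median level was 2.28 CPM per kb of exon in KRAB members, 5.11 in members without the box and 5.58 over all tested genes. Members were selected on their counts, whereas the tested genes passed only the filter on low counts, so these levels describe the selection and were not compared by a test. The 109 tested Zfp genes under the threshold, 84 of them with a KRAB box, had a median of 0.527.

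The highest levels per length belonged to members without a KRAB box. Zfp706, which encodes a very small protein with a single finger, had 86.5 and 79.7 CPM per kb in the controls against 88.9 and 78.2 after knock-down. Zfp622 followed with 53.1 and 58.5 CPM per kb in the controls against 58.3 and 82.7 after knock-down, and Zfp511 with 36.9 and 40.3 CPM per kb in the controls against 43.7 and 59.2 after knock-down. Zfp706 lay above Zfp622 in 3 of the 4 samples but not in Kap1 KD replicate 2, where Zfp622 was higher, and the control values of these 3 genes did not overlap. Zfp207, a spindle-associated protein also known as BuGZ, had 33.99 and 29.2 CPM per kb in the controls against 33.6 and 27.4 after knock-down. Zfp330, a nucleolar protein, had 35.2 and 23.3 CPM per kb in the controls against 34.5 and 22.6 after knock-down, and its values overlapped those of Zfp207. 19.1% of the 100-base stretches in the exons of Zfp330 also occur in exons of a gene elsewhere, so its counts are uncertain.

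At the threshold of 200 mean counts, Zfp59 was just inside with 278 and 190 counts in the controls against 203 and 133 after knock-down. Zfp82 was also just inside, with 235 and 182 in the controls against 194 and 195 after knock-down. Zfp944 was just outside with 328 and 158 in the controls against 180 and 129 after knock-down, and Zfp329 with 357 and 123 in the controls against 199 and 102 after knock-down. These 4 genes are alike in abundance, and the threshold separates no natural groups. 31.7% of the 100-base stretches of Zfp59 recur in another gene, the highest share among the members; 157 of the 179 had no such stretch and 5 had more than 10%.

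With no replicate block, edgeR called 0 members higher and 0 lower in Kap1 KD cells, as it did 0% of all tested genes in each direction. At an unadjusted p under 0.05 there were 0 members and 185 of all tested genes, the smallest p of a member was 0.0589, and DESeq2 without the block called 0 members. The median log2 fold change was -0.057 over the 179 members, with quartiles at -0.17 and 0.078, against -0.016 over all tested genes. Single members ranged from -0.76 (Zfp238) to 0.88 (Zfp296). Without the block Trim28 was not called by edgeR with all 4 samples but was called by DESeq2 and by edgeR with any 1 sample left out, and these fits too called 0 members. A count of 0 does not show that the members did not change.

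Replicate values separated the groups in few members. In 12 members (6.70%) both Kap1 KD samples lay above both controls, where 9.69% of all tested genes did. In 9 members (5.03%) both lay below, where 10.6% of all tested genes did. Both shares are under the background. Of the 12, 10 had no KRAB box, and of the 9, 7 had none.

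**Figure D1:**
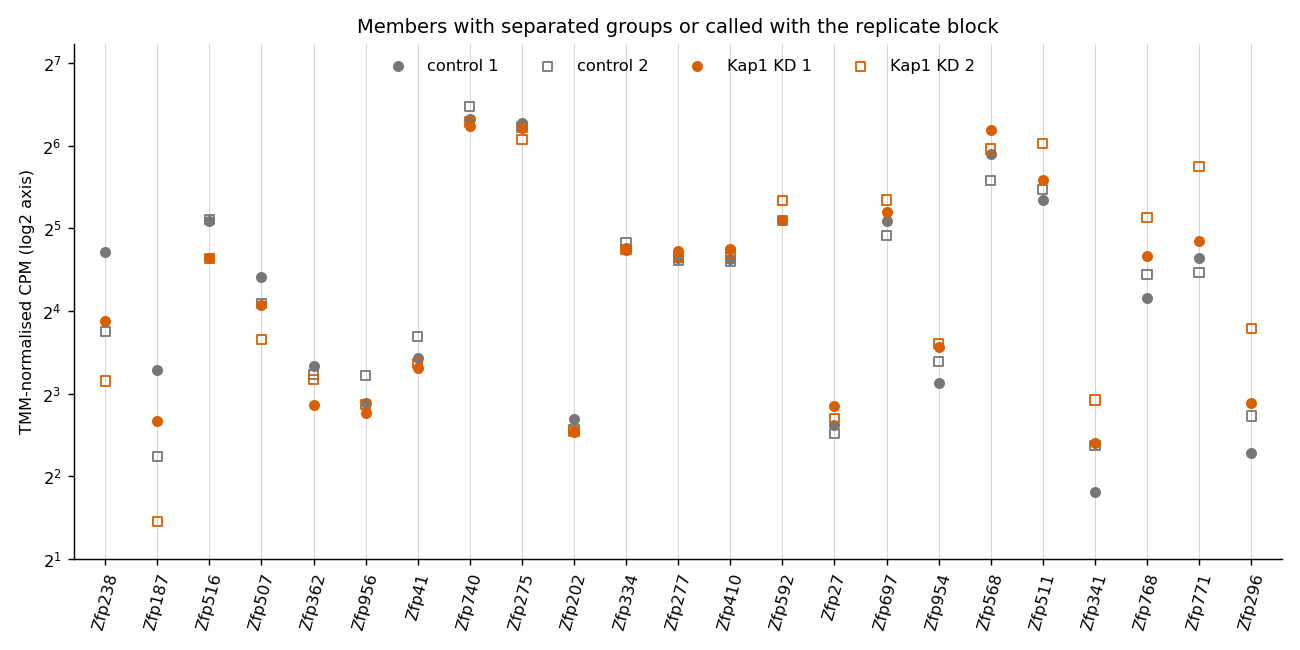
TMM-normalised CPM on a log2 axis of the 21 members whose groups did not overlap and of Zfp238 and Zfp187, 1 column a gene, ordered by log2 fold change with the replicate block; grey symbols are control and orange symbols Kap1 KD samples, filled for replicate 1 and open for replicate 2. The gap between the groups is widest in Zfp516, and in Zfp238 and Zfp187 the groups overlap although each Kap1 KD sample lies below the control of its own number.

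The members with the highest rise were Zfp296, Zfp771 and Zfp768, all on chromosome 7 and all without a KRAB box. Zfp296, a factor of germ and pluripotent stem cells, had 4.87 and 6.63 CPM in control replicates 1 and 2 and 7.39 and 13.8 in Kap1 KD replicates 1 and 2. Both Kap1 KD samples were above both controls, narrowly so for Kap1 KD replicate 1, and Kap1 KD replicate 2 stood apart at the top. The log2 fold change was 0.88 (SE 0.40) without the block and 0.85 (SE 0.13, adjusted p = 1.7e-09) with it. The difference was 0.59 between the samples numbered 1 and 1.05 between those numbered 2.

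Zfp771 had 24.8 and 22.2 CPM in control replicates 1 and 2 and 28.8 and 53.7 in Kap1 KD replicates 1 and 2. Kap1 KD replicate 2 was far above the other 3 samples, which lay close together. The difference was 0.21 between the samples numbered 1 and 1.27 between those numbered 2, so the value rests on Kap1 KD replicate 2. edgeR gave 0.81 (SE 0.35) without the block and 0.75 (SE 0.081, adjusted p = 5.9e-18) with it, whereas the adjusted p of DESeq2 with the block was 0.419. The SE with the block does not reflect how far apart the differences of Zfp771 lay. For Zfp646, with differences of 0.0072 and 0.0070, the SE with the block was 0.078. Zfp768, a neighbour of Zfp771, had 17.8 and 21.7 CPM in control replicates 1 and 2 and 25.3 and 35.01 in Kap1 KD replicates 1 and 2. The groups did not overlap, and the gap was of like size within each number, at 0.50 between the samples numbered 1 and 0.69 between those numbered 2. With the block its log2 fold change was 0.60 (SE 0.086, adjusted p = 2.7e-10) in edgeR, and the adjusted p of DESeq2 with the block was 1.7e-04.

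The promoters of these 3 members are shown because the 3 were called higher together. They are 300-base windows around the start site from RefSeq (GRCm38.p6), which lists a promoter under the symbol of 138 of the 179 members, and each was placed in mm9 by its single exact match, at chr7:20162386-20162685 on the plus strand for Zfp296, chr7:134488779-134489078 on the minus strand for Zfp768 and chr7:134387790-134388089 on the plus strand for Zfp771. Capitals mark GGGCGG on either strand, that is GGGCGG or CCGCCC.
Zfp296: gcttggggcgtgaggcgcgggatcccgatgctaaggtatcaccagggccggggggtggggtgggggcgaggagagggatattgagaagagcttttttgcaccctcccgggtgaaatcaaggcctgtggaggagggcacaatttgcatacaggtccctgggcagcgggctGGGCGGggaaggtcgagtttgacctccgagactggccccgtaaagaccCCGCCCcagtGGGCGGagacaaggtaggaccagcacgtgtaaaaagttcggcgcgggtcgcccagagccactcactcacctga
Zfp768: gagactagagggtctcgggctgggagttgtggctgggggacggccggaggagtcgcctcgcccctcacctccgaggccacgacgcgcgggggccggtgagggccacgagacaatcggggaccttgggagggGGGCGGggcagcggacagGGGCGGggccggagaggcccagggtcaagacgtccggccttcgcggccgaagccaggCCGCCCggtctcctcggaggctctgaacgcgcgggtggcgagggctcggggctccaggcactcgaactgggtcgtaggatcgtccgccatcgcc
Zfp771: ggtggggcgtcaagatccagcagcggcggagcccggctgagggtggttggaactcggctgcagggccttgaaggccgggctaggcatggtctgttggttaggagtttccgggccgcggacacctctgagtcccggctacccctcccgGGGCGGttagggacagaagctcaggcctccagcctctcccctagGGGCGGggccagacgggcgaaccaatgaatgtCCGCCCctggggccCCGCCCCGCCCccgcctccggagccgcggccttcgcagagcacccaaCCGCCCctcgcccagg

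The motif occurred 3 times in the Zfp296 promoter, 3 times in that of Zfp768 and 6 times in that of Zfp771. It was present in 35.7% of the 32851 RefSeq promoters of the same length. The windows held 19, 35 and 25 CpG dinucleotides in the same order, against a median of 7 over all of them. A match describes the letters only.

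Zfp341, whose human counterpart controls STAT3 expression, had 3.501 and 5.18 CPM in the controls against 5.28 and 7.59 after knock-down. Kap1 KD replicate 1 was only just above control replicate 2. With the block the log2 fold change was 0.57 (SE 0.14, adjusted p = 0.00101), short of 1.5-fold, and it was 0.58 between the samples numbered 1 and 0.54 between those numbered 2. DESeq2 with the block did not pass it (adjusted p = 0.112). Zfp511 had 40.5 and 44.3 CPM in the controls against 48.1 and 65.2 after knock-down, without overlap, and 0.40 (SE 0.077, adjusted p = 4.8e-06) with the block. Zfp697 had 34.1 and 30.1 CPM in the controls against 36.8 and 40.5 after knock-down, and here too every Kap1 KD sample exceeded every control.

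Only 2 of the 12 were KRAB members. Zfp568, which represses a placental transcript of Igf2 in the embryo, had 59.9 and 47.8 CPM in the controls against 72.9 and 62.2 after knock-down. Both numbers gave a similar rise, 0.28 between the samples numbered 1 and 0.38 between those numbered 2, and edgeR with the block gave 0.33 (SE 0.081, adjusted p = 6.8e-04). Zfp954 had 8.76 and 10.5 CPM in the controls against 11.9 and 12.2 after knock-down, without overlap, and 0.32 (SE 0.11, adjusted p = 0.0268) in the same test. In DESeq2 with the block Zfp568 passed (adjusted p = 0.0151) and Zfp954 did not (adjusted p = 0.269). Zfp568 and Zfp954 both stayed under 1.5-fold.

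In the remaining members above control the gaps were small. Zfp27 had 6.16 and 5.74 CPM in the controls against 7.21 and 6.498 after knock-down. Zfp592 had 34.2 and 34.1 CPM in the controls against 34.3 and 40.4 after knock-down, where control and Kap1 KD replicate 1 nearly touch. Zfp410 and Zfp277 showed log2 fold changes of 0.11 (SE 0.085) and 0.066 (SE 0.086) with the block. For Zfp27, Zfp592, Zfp410 and Zfp277 the groups did not overlap, yet the adjusted p with the block lay between 0.252 and 0.638 in edgeR.

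Among the 9 members below control, Zfp516 stood out for its tight replicates. This gene, a regulator of brown fat genes, had 33.9 and 34.5 CPM in control replicates 1 and 2 and 25.05 and 24.9 in Kap1 KD replicates 1 and 2. The controls differed from each other by far less than from the Kap1 KD samples, in which the values were also alike. Its log2 fold change was -0.45 (SE 0.18) without the block, with the smallest unadjusted p among the members, and -0.45 (SE 0.083, adjusted p = 1.4e-06) with it. The adjusted p of DESeq2 with the block was 0.00664.

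Zfp507 had 21.3 and 17.1 CPM in the controls against 16.9 and 12.6 after knock-down, where Kap1 KD replicate 1 came just under control replicate 2, and -0.39 (SE 0.098, adjusted p = 8.8e-04) with the block in edgeR, against an adjusted p of 0.0895 in DESeq2. 26.8% of its exonic bases are also exon of another gene, and the counting's use of strand is not stated, so its counts are uncertain. Zfp362 had 10.1 and 9.37 CPM in the controls against 7.25 and 8.999 after knock-down, with most of the gap in replicate 1. Zfp956 and Zfp41 had log2 fold changes of -0.23 (SE 0.13) and -0.22 (SE 0.11) with the block. The last 4, Zfp740, Zfp275, Zfp202 and Zfp334, lay between -0.13 and -0.051, with adjusted p from 0.236 upward in edgeR.

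Samples of the same number deviated together from their group means, and edgeR was therefore also run with the number as a block. It called 3 members higher (1.68%), namely Zfp296, Zfp771 and Zfp768, where 2.06% of all tested genes were called higher. It called 2 lower (1.12%), Zfp238 and Zfp187, where 2.4% of all tested genes were called lower. On the adjusted p alone, with no fold threshold, it passed 17 members higher (9.50%) and 15 lower (8.38%), against 10.1% and 11.5% of all tested genes. Each of these shares lies under the background. DESeq2 with the block, on its adjusted p alone, passed far fewer, 10 of the 179 members and 856 of all tested genes. The 5 called members had no KRAB box.

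Zfp238, now named Zbtb18, is a repressor needed in the developing brain. It had 26.2 and 13.5 CPM in control replicates 1 and 2 and 14.7 and 8.89 in Kap1 KD replicates 1 and 2. Control replicate 2 was lower than Kap1 KD replicate 1, so the groups overlapped, but within each number the Kap1 KD sample was the lower one, at -0.83 between the samples numbered 1 and -0.60 between those numbered 2. The log2 fold change was -0.76 (SE 0.44) without the block and -0.73 (SE 0.10, adjusted p = 6.8e-11) with it, and the adjusted p of DESeq2 with the block was 2.1e-04. Zfp187, now Zscan26, had 9.78 and 4.74 CPM in control replicates 1 and 2 and 6.34 and 2.74 in Kap1 KD replicates 1 and 2, in the same arrangement. Its log2 fold change with the block was -0.70 (SE 0.14, adjusted p = 2.4e-05), and 23.6% of its exonic bases are shared with another gene, which leaves its counts uncertain.

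The next most negative was Zfp462, a long protein with 33 fingers chosen after its values were seen, at 61.7 and 39.6 CPM in the controls against 41.6 and 28.5 after knock-down. The groups overlapped, and the log2 fold change with the block was -0.52 (SE 0.073, adjusted p = 7.5e-11). Zfp597, which lies in an imprinted region and is expressed from the maternal allele, had 4.87 and 2.54 CPM in the controls against 6.08 and 3.997 after knock-down, with overlap, and 0.47 (SE 0.15, adjusted p = 0.0162) with the block in edgeR, against an adjusted p of 0.279 in DESeq2. 24.2% of its exonic bases belong to another gene too.

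**Figure D2:**
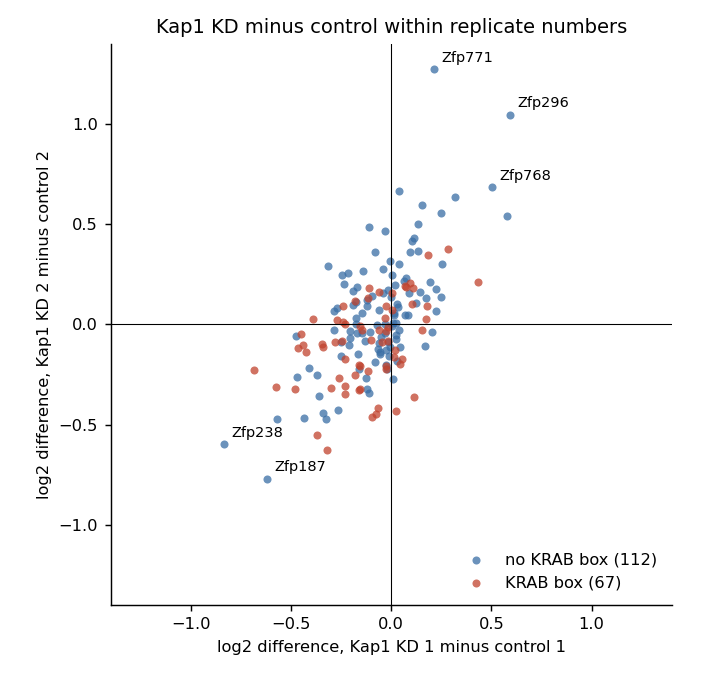
Log2 difference Kap1 KD minus control between the samples numbered 1 (horizontal axis) and between those numbered 2 (vertical axis), 1 point a member, in red with and in blue without a KRAB box; the 5 members called with the replicate block are named. Of the 179 members, 47 lie above 0 on both axes, 78 below 0 on both and 54 have opposite signs. Of all 14142 tested genes, which are not drawn, 4644 were above 0 in both differences and 5392 below 0 in both.

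KRAB members lay slightly lower than the others. Their median log2 fold change was -0.11, with quartiles at -0.24 and -0.011, against -0.014, with quartiles at -0.11 and 0.13, in members without the box and -0.016 over all tested genes. Between the samples numbered 1 the KRAB median was -0.11, and between those numbered 2 it was -0.087. In 37 of 67 KRAB members the Kap1 KD sample was the lower one within both numbers, in 12 the higher one and in 18 the signs differed. Without the box the same counts were 41, 35 and 36 of 112. Of all 14142 tested genes, 5392 were lower within both numbers and 4644 higher within both. Leaving out 1 sample from the fit without the block changed the sign of the KRAB median in 2 of 4 cases: it was 0.20 without control replicate 1 and 0.11 without Kap1 KD replicate 2, but -0.37 without control replicate 2 and -0.51 without Kap1 KD replicate 1. Such a fit holds unequal numbers of replicates 1 and 2, between which KRAB members differed by a median of -0.60 in control and -0.52 in Kap1 KD samples, whereas within each number the median was negative. With the block 0 of the 67 and 5 of the 112 without the box reached 1.5-fold in either direction, where 1065 of all 14142 tested genes did.

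The KRAB members with the most negative log2 fold change with the block were Zfp101, Zfp931, Zfp617 and Zfp9. Zfp101 had 12.4 and 3.104 CPM in control replicates 1 and 2 and 8.26 and 2.48 in Kap1 KD replicates 1 and 2. The gap between the numbers was several times that between the groups, and the log2 fold change with the block was -0.48 (SE 0.14, adjusted p = 0.00529). Zfp871, from the same cluster, had 21.4 and 10.2 CPM in the controls against 15.3 and 8.101 after knock-down, with each Kap1 KD sample under the control of its number, and -0.41 (SE 0.11, adjusted p = 0.00146). DESeq2 with the block passed neither, with an adjusted p of 0.224 for Zfp101 and 0.111 for Zfp871. Zfp931, on chromosome 2, and Zfp617, on chromosome 8, chosen like Zfp9 after their values were seen, had log2 fold changes of -0.48 (SE 0.15, adjusted p = 0.0119) and -0.46 (SE 0.12, adjusted p = 0.00126) in edgeR with the block. The adjusted p of DESeq2 with the block was 0.32 for Zfp931 and 0.113 for Zfp617.

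By position, 48 of the 179 members lie on chromosome 7, 15 on chromosome 17 and 13 each on chromosomes 5, 6 and 8. Chains of members whose starts are at most 500 kb apart gave 8 clusters of at least 4 members, which hold 50 members in all, 27 of them with a KRAB box. All positions are in mm9. The median log2 fold change with the block was 0.0017 over these 50 and -0.051 over the 80 members with no member nearby. KRAB members within the clusters had a median of -0.045 and the 40 outside them one of -0.18. Median exon GC content differed too, at 51.6% in the 50 and 48.1% in the 80. It was 45.6% in KRAB members within and 43.6% in those outside the clusters. The median control replicate 2 minus replicate 1 difference was -0.32 in KRAB members within and -0.71 in those outside. The part of either in these contrasts was not tested.

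**Figure D3:**
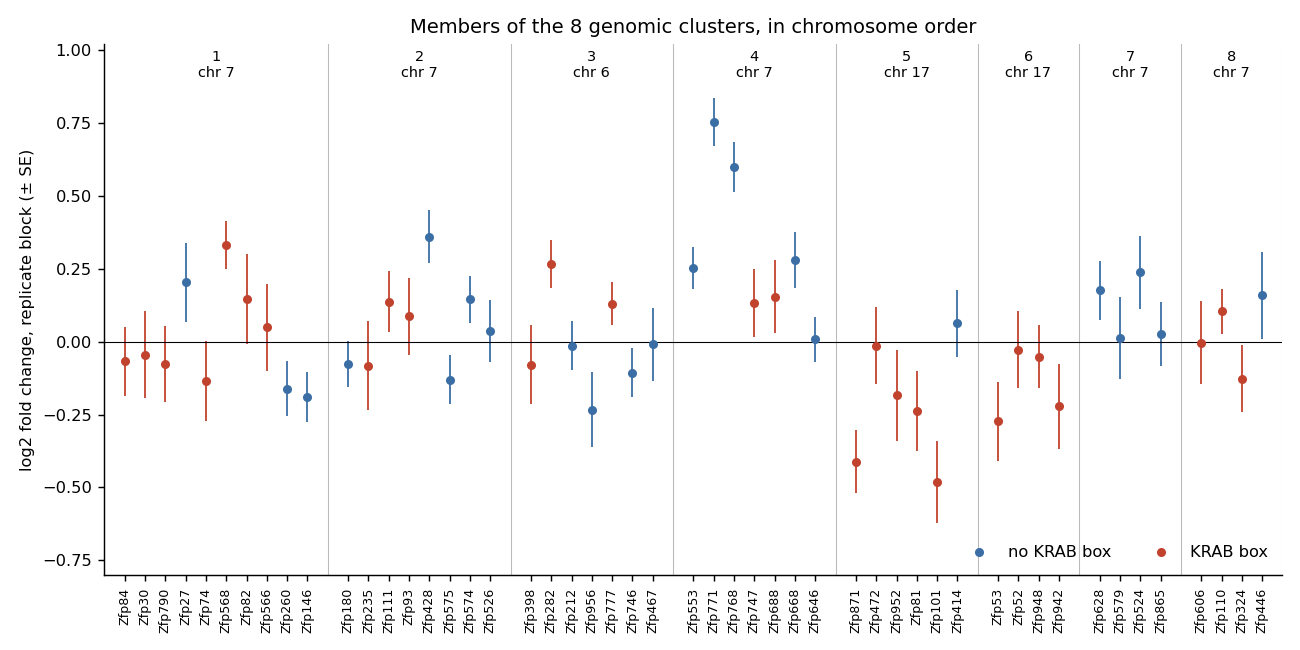
Log2 fold change with the replicate block (points, ± SE as bars) for the 50 members of the 8 clusters in chromosome order, numbered as in the text with their chromosome, in red with and in blue without a KRAB box. All points lie above 0 in clusters 4 and 7 on chromosome 7, and all lie below 0 in cluster 6 on chromosome 17.

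The cluster with the most members, number 1, spans chr7:30553571-30954746 and holds 10 members, 7 with a KRAB box. Its median log2 fold change with the block was -0.057. Zfp568, whose KRAB stretch is given above, and Zfp27, a gene without a KRAB box by this measure, were the 2 whose Kap1 KD samples both exceeded both controls. Their neighbour Zfp74, between them, had 7.92 and 4.797 CPM in the controls against 6.55 and 4.87 after knock-down, with overlap, and Zfp146, at the far end, had 34.2 and 19.4 CPM in the controls against 30.6 and 16.7 after knock-down, where the numbers differed far more than the groups. Members of this cluster went to either side of 0, from -0.19 to 0.33.

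Cluster 4, at chr7:134376575-135029510, holds 7 members, Zfp553, Zfp771, Zfp768, Zfp747, Zfp688, Zfp668 and Zfp646, of which Zfp747 and Zfp688 have a KRAB box. The counts of Zfp747 are uncertain, since 11.2% of its 100-base stretches recur in another gene. All 7 had a Kap1 KD value above the control of the same number in both numbers, and the median log2 fold change with the block was 0.25. Zfp553 had 32.1 and 44.4 CPM in the controls against 35.2 and 57.2 after knock-down, with control replicate 2 above Kap1 KD replicate 1, and 0.25 (SE 0.073, adjusted p = 0.00509) with the block. Zfp668 had 14.00 and 19.03 CPM in the controls against 16.7 and 23.5 after knock-down, again with overlap, and 0.28 (SE 0.095, adjusted p = 0.0201). DESeq2 with the block passed neither, at an adjusted p of 0.155 for Zfp553 and 0.219 for Zfp668. At the other end, Zfp646 had 30.1 and 38.4 CPM in the controls against 30.3 and 38.6 after knock-down and differences of 0.0072 and 0.0070 within the numbers. The median GC content of exons in this cluster was 57.3%, against 49.8% over all tested genes, and its values lean on Kap1 KD replicate 2, with a median of 0.13 between the samples numbered 1 and 0.30 between those numbered 2.

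On chromosome 17 lie 2 clusters. Cluster 5, at chr17:32908181-33768724, has 6 members, 5 with a KRAB box (Zfp871, Zfp472, Zfp952, Zfp81 and Zfp101), and a median of -0.21 with the block, -0.19 between the samples numbered 1 and -0.21 between those numbered 2. Zfp414, its member without a KRAB box or a match to the finger pattern, had 9.07 and 12.1 CPM in the controls against 8.803 and 13.5 after knock-down, the only one of the 6 above 0 with the block, but 29.2% of its exonic bases are also exon of another gene, so its counts are uncertain. Cluster 6, at chr17:21628220-22099431, has 4 KRAB members, Zfp53, Zfp52, Zfp948 and Zfp942, and a median of -0.14, but -0.29 between the samples numbered 1 and -0.0032 between those numbered 2, so it rests on replicate 1. Zfp53 and Zfp52 were lower within both numbers, Zfp948 and Zfp942 within number 1 alone. Zfp948 had 21.7 and 6.81 CPM in control replicates 1 and 2 and 19.1 and 7.396 in Kap1 KD replicates 1 and 2. Its replicate 2 values were less than those of replicate 1 by more than the groups differed, and so were those of the other 3 in this cluster. None of the 10 members of both clusters was called. The median GC content of exons was 41.8% in cluster 5 and 39.6% in cluster 6, against 49.8% over all tested genes.

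Among the rest, cluster 2 at chr7:24866943-26012526 has 8 members with a median of 0.062, in which Zfp428 had 16.9 and 17.8 CPM in the controls against 17.3 and 28.3 after knock-down, high in Kap1 KD replicate 2 alone. Cluster 3 at chr6:47785660-48395824 has 7 with a median of -0.014, and of its 3 KRAB members Zfp282 had 51.9 and 64.5 CPM in the controls against 58.9 and 81.9 after knock-down, with overlap, while Zfp398 lay on the other side of 0 at -0.079 (SE 0.13) with the block. Cluster 7 at chr7:4866819-4984740 has 4 members, none with a KRAB box, and a median of 0.10, with -0.089 between the samples numbered 1 and 0.28 between those numbered 2. Its median GC content of exons was 61.8%. Cluster 8 at chr7:13063642-13569689 has 4 members, Zfp606, Zfp110, Zfp324 and Zfp446, and lies beside Trim28 itself, which starts 39.8 kb beyond the end of Zfp446. Zfp446 had 4.67 and 4.25 CPM in the controls against 4.65 and 5.32 after knock-down and Zfp324 had 10.3 and 12.7 CPM in the controls against 11.1 and 9.85 after knock-down, both with overlap, and no member of cluster 8 was called although Trim28 next to it was far lower in Kap1 KD cells.

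Replicate number, not knock-down, was the larger difference within the members. In 154 of the 179 the mean log2 gap between replicates 2 and 1 exceeded the log2 fold change with the block, as it did in 10616 of all 14142 tested genes. KRAB members had a median replicate 2 minus replicate 1 difference of -0.60 in control and -0.52 in Kap1 KD samples, and 54 of 67 (80.6%) were lower in replicate 2 in both groups. Members without the box had -0.090 and -0.027, and 55 of 112 (49.1%) were lower in both, against 43.4% of all tested genes.

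This gap followed the base composition of the exons. The median GC content was 43.9% in KRAB members and 50.9% in the others, and 34 of the 67 KRAB members fell in the lowest of 5 equal bins of tested genes by GC, which reaches 44.2%. In that bin the control replicate difference was -0.90 in KRAB members, -0.88 in the 23 members without the box and -0.64 over all 2824 tested genes. In the bin with the most GC, which holds 3 KRAB members and 36 others, the difference over all members was 0.27, and 0.30 over all tested genes. In the lowest bin the Kap1 KD replicate difference was -0.90 in KRAB members and -0.68 in members without the box, so the near equality seen in the controls was not repeated there.

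**Figure D4:**
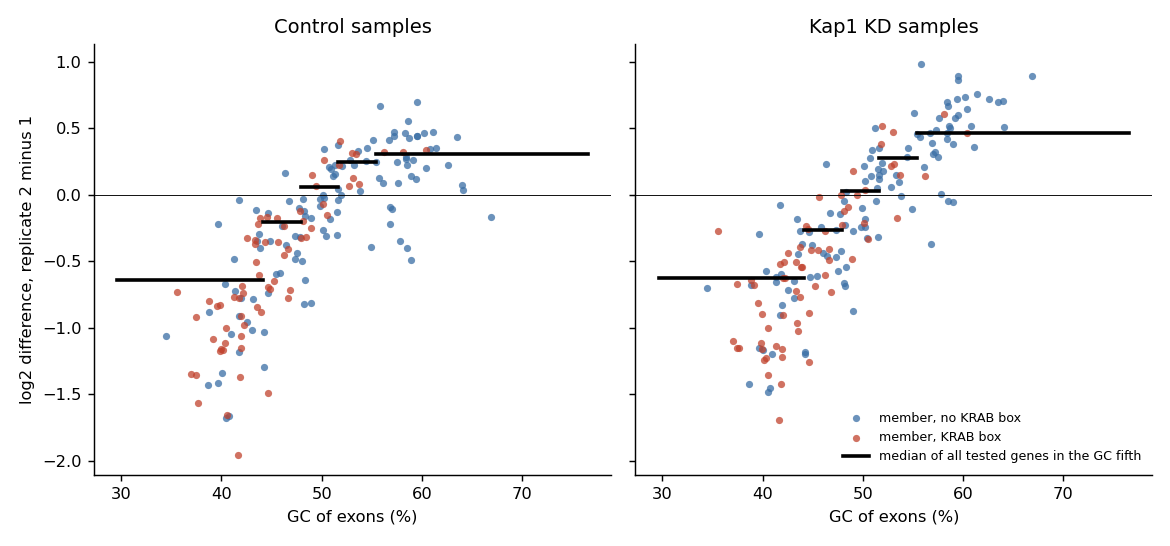
Log2 difference of replicate 2 minus replicate 1 against the GC content of exons in percent, in control samples on the left and Kap1 KD samples on the right, 1 point a member, in red with and in blue without a KRAB box; black lines are the medians of all tested genes in each of 5 bins of GC content. Points run from below 0 at low GC to above 0 at high GC in both panels, and red points lie mostly at low GC.

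Zfp292 and Zfp62, both without a KRAB box and chosen after their values were seen, show the pattern at low GC. Zfp292, with 40.5% GC, had 38.2 and 11.9 CPM in control replicates 1 and 2 and 28.7 and 10.2 in Kap1 KD replicates 1 and 2. Zfp62, with 40.8%, had 24.9 and 7.76 CPM in control replicates 1 and 2 and 17.9 and 6.46 in Kap1 KD replicates 1 and 2. In both genes each replicate 2 value was far below both replicate 1 values. The log2 fold change with the block also moved with GC, over all tested genes from a median of -0.13 in the lowest bin to 0.097 in the highest. Over the members it went from -0.18 to 0.13. KRAB members had the lower median of the members in bins 1, 3 and 5 and the higher one in bins 2 and 4, counted from low GC. The medians were -0.23 against -0.094 without the box in bin 1 and 0.086 against 0.0071 in bin 4. Bins 1 to 5 held 34, 15, 8, 7 and 3 KRAB members, and GC content varied within a bin, from 29.6% to 44.2% in bin 1. The part of GC content in the members' changes was not tested.

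Other zinc-finger families and the Zfp genes of low count were set beside the members. Of the 138 Zfp genes under 200 mean counts, 109 were tested, 84 of them with a KRAB box, and their median log2 fold change with the block was -0.21. With the block 1 was called higher (0.917%) and 5 lower (4.59%), where 2.06% and 2.4% of all tested genes were. On the adjusted p alone edgeR passed 2 higher (1.83%) and 6 lower (5.50%), under the 10.1% and 11.5% of all tested genes. DESeq2 with the block passed 0 of the 109, but it gave some genes of low count, such as Apoa1, no adjusted p. The 109 had a median of 76.25 mean counts and an exon GC content of 43.5%. The lists that follow are too small to be read against those shares. The 29 tested Zbtb genes, with a BTB domain, had a median of -0.012, with 0 called higher and 2 lower. The 14 Zkscan and Zscan genes, with a SCAN domain, had 0.045, with 0 higher and 1 lower, and the 16 Klf and Sp genes had -0.082, with 1 higher and 0 lower. Of the genes whose products act with KAP1, 23 entries other than Trim28 were tested, with 0 called in either direction and a median of -0.057. Setdb1, the histone methyltransferase of the complex, had 66.7 and 54.4 CPM in the controls against 62.1 and 53.95 after knock-down, with overlap.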

How the data were processed

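The authors aligned 100-base reads to mm9 with TopHat2 2.0.11, reporting 1 alignment a read, and deposited raw counts per Ensembl gene from HTSeq 0.6.1 (versions per the submitters' processing notes), with the strand setting not given in the sources used here. Counts were tested in R 4.3.3 with edgeR 4.0.16 (genes kept by filterByExpr, scaled by TMM, tested by quasi-likelihood, with Benjamini-Hochberg over 14142 genes); calls needed a 1.5-fold change and an adjusted p under 0.05. Standard errors were taken as the size of the change over the root of the F statistic, and differences between single samples used CPM plus 0.1. DESeq2 1.42.0 was the alternative. Symbols, positions, exons and transcripts came from GENCODE M1 on NCBIM37 (mm9), which matched 21806 of 21915 identifiers. KRAB boxes were planned on RefSeq proteins but were scored on translated transcripts. The named genes are Trim28, members beside the threshold, the 5 highest per length, up to 12 increases and 12 decreases among members with separated groups, members called with the block, and cluster members; others are named as chosen later. Members and lists were chosen with earlier results of these data known. Small RNA tables were not used here.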

Additional observations from a re-analysis of the deposited data

How the results depend on the processing

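With the number as a replicate block, calls went from 0 to 3 higher and 2 lower, the same counts with RLE size factors (added after seeing the data), to 2 and 2 in DESeq2, and to 17 and 15 without the fold threshold; the labels do not say that the numbers pair the samples, whose same-numbered deviations correlated at 0.796 across genes, and principal component 1, with 74.4% of the variance, separated the numbers. Without the block, other scaling, no filter, DESeq2, other membership thresholds and leaving out each sample all gave 0 calls. The Trim28 log2 fold change passed the threshold on the adjusted p with the block (-2.48, or -2.47 with RLE), in DESeq2 (-2.47, or -2.48 with the block) and on leaving out single samples (-2.71 to -2.27), but not in the other settings; the cause was not tested. Leaving out each sample, which makes the replicate numbers unequal between groups, moved the median from -0.17 to 0.11 over members, -0.51 to 0.20 over KRAB members and -0.027 to 0.064 over the others, and with fewer samples to separate, 31 to 55 members lay above and 20 to 94 below control. At 100 mean counts the KRAB median was -0.16. No other setting moved a median beyond the spread between the numbers. A group left with 1 sample is assumed to vary like the other.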
